A study of Homo sapiens with 18 samples.

Results

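Tetraspanins are small proteins that cross the membrane 4 times and gather integrins, proteases and other surface proteins into membrane microdomains. Their messenger RNA was followed in HCC827, an established line of human lung adenocarcinoma cells carrying mutant EGFR, during epithelial to mesenchymal transition (EMT), the change in which epithelial cells give up cell junctions and take on mesenchymal traits. Members were all array probes annotated with a single symbol that is TSPAN followed by a number, or that is CD9, CD37, CD53, CD63, CD81, CD82 or CD151. The rule found 48 of the table's 47323 probes, and these stand for 28 of the 20046 genes with a probe of a single symbol. CD63 is not analysed here, because no probe was listed for it, and 1 further probe annotated to TSPAN14 together with another gene was not counted as a member.

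Total RNA was measured on 18 Illumina bead arrays in 6 groups of 3. TGFB1 cells were given the growth factor TGFB1 and stand against untreated parental cells. SNAIL cells carry a pLX303 lentivirus for the V5-tagged EMT transcription factor SNAIL (gene symbol SNAI1) and stand against cells with a lacZ control virus. shCDH1 cells carry a pLKO1 lentiviral hairpin against CDH1, the gene of E-cadherin, and stand against cells with a non-target hairpin (shNT). All groups share the HCC827 background and its mutant EGFR. The labels give 30 days of TGFB1, whereas the design text of the series has 10 ng/mL for 72 hours. Arrays are numbered 1 to 3 in the titles but 1, 1 and 2 in the descriptions, and no label states that a group's arrays are separate cultures. The p-values therefore measure only the spread between these arrays, which may be technical.

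Several tetraspanins have well-described partners. CD151 binds the laminin receptors, CD9 and CD81 bind the immunoglobulin proteins PTGFRN and IGSF8, and CD9, CD63 and CD81 are widely used markers of extracellular vesicles. The TspanC8 tetraspanins (TSPAN5, TSPAN10, TSPAN14, TSPAN15, TSPAN17 and TSPAN33) escort the protease ADAM10, which sheds cadherins and Notch, and the choice of TspanC8 is known to steer which substrate is cut. TSPAN12 belongs to the receptor complex of Norrin, and CD37, CD53 and TSPAN32 are leukocyte proteins.

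SNAIL and the related ZEB repressors are known to bind the E-box letters CAGGTG, which read CACCTG on the other strand. Those letters were looked for on both strands in the 250 bases before each RefSeq gene start (GRCh38.p14), where 20 of the 28 genes had an entry. Upstream windows of 6 genes are shown because TSPAN8, CD9 and TSPAN13 had the largest falls in SNAIL cells, while TSPAN10, TSPAN33 and TSPAN2 were among those that rose there. The rising genes shown are not those with the largest rises, since TSPAN4 and TSPAN9 (0.75 each) rose more than TSPAN2 (0.57). TSPAN9 and CD81, which also rose in SNAIL cells, had no entry. Each window shown is that of the most upstream start of its gene, read 5′ to 3′ on the gene's strand, with the E-box letters in capitals.
TSPAN8 (chr12:71158000-71158249, minus strand): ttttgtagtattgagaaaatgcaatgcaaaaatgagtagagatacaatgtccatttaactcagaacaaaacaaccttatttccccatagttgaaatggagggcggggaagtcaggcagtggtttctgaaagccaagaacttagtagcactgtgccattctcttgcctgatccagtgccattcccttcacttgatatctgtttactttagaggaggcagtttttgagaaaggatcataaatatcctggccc
CD9 (chr12:6199696-6199945, plus strand): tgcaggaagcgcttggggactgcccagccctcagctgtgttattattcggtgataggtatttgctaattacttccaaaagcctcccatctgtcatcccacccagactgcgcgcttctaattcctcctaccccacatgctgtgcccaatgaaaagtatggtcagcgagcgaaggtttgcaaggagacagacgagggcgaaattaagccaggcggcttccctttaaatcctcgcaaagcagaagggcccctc
TSPAN13 (chr7:16753505-16753754, plus strand): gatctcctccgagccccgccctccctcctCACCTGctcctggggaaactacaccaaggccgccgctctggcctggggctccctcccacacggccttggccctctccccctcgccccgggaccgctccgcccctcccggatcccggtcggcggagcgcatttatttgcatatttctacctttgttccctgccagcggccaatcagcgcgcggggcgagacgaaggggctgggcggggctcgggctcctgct
TSPAN10 (chr17:81642055-81642304, plus strand): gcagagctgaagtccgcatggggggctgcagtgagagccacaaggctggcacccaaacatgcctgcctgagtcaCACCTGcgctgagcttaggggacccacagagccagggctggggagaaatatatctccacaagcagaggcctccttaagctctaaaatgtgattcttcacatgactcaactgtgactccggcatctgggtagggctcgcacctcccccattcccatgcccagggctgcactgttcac
TSPAN33 (chr7:129144457-129144706, plus strand): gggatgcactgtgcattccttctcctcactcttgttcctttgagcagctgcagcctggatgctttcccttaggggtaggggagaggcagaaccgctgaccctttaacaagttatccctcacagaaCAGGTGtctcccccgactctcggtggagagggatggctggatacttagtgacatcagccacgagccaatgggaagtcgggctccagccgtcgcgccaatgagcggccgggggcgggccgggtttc
TSPAN2 (chr1:115089504-115089753, minus strand): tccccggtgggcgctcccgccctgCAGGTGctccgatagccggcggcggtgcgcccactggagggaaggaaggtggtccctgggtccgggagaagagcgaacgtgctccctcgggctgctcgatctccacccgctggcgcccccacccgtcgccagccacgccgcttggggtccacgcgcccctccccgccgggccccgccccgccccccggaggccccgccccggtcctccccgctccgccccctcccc
The letters stood 221 bases before the TSPAN13 start, 176 before that of TSPAN10, 125 before that of TSPAN33 and 226 before that of TSPAN2, so both falling and rising genes held them. None of the 5 windows of TSPAN4, which also rose in SNAIL cells, held them, nor did that of TSPAN31, which rose there too. No window of TSPAN1, TSPAN5, TSPAN14 or TSPAN15, which fell in SNAIL cells, held them. CD53, TSPAN16 and TSPAN19 each had a window with the letters but no called change in SNAIL cells. Neither window of TSPAN8 held them, and for CD9 they occurred in 1 of its 4 windows, which is not the one shown. In all, 8 of the 20 tetraspanin genes with an entry had a match, against 20.6% of all genes, and 8 of their 33 windows had one, against 17.5% of all 35116 windows. A match is a run of letters and was not tested as a binding site.

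Levels are log2 intensities after background correction and quantile normalization, and each change is a log2 difference ± SE or a fold. Levels of different probes are not comparable, since each probe has its own brightness. The median of all probes was 6.82, and a probe whose 6 group means all lay below it is called dim. By that measure 13 tetraspanin probes were dim and 35 were not. All probes of 6 genes were dim, and 22 genes had at least 1 probe that was not. Deposited array medians ran between 152.1 and 235.8 intensity units, and each of the 18 arrays correlated best with an array of its own group. TGFB1 arrays 1 and 2 had the lowest medians, 154.2 and 152.1, while TGFB1 array 3 had 224.6. CDH1 averaged 8.60 ± 0.40 in shCDH1 and 13.00 ± 0.05 in shNT cells (SD, n = 3 here and throughout), 21.1-fold lower. It was 49-fold lower in SNAIL than in lacZ cells, with means of 7.50 ± 0.04 and 13.12 ± 0.03, and 1.27-fold lower in TGFB1 than in parental cells, with means of 12.69 ± 0.09 and 13.03 ± 0.03 (adjusted p = 0.0434). The TGFB1 call was lost when any one of the 6 arrays was left out (adjusted p between 0.0512 and 0.153). VIM, the mesenchymal filament vimentin, rose 7.95-fold in TGFB1, 1.41-fold in SNAIL and 7.46-fold in shCDH1 cells, but lacZ cells already stood at 12.86 ± 0.04 against 10.27 ± 0.08 in parental cells. The SNAI1 probe was dim in every group, at 6.16 ± 0.12 in SNAIL and 6.29 ± 0.19 in lacZ cells, so it did not show the introduced SNAIL. Where that probe lies relative to the introduced sequence was not analysed here. All 5 epithelial markers (EPCAM and keratins) were above the median of all probes in every group, but in SNAIL cells they were much lower than in lacZ cells, with KRT19 at 6.96 against 13.86 and KRT18 at 9.87 against 12.27. Of 3 lung adenocarcinoma markers, SFTPB was near that median throughout. NKX2-1 stood at 10.08 in TGFB1, 7.22 in SNAIL and 6.13 in shCDH1 cells, against 10.84 in parental, 9.91 in lacZ and 10.24 in shNT cells, and NAPSA fell to 6.81 in TGFB1, 6.55 in SNAIL and 6.39 in shCDH1 cells, against 13.30 in parental, 11.47 in lacZ and 12.88 in shNT cells.

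**Figure D1:**
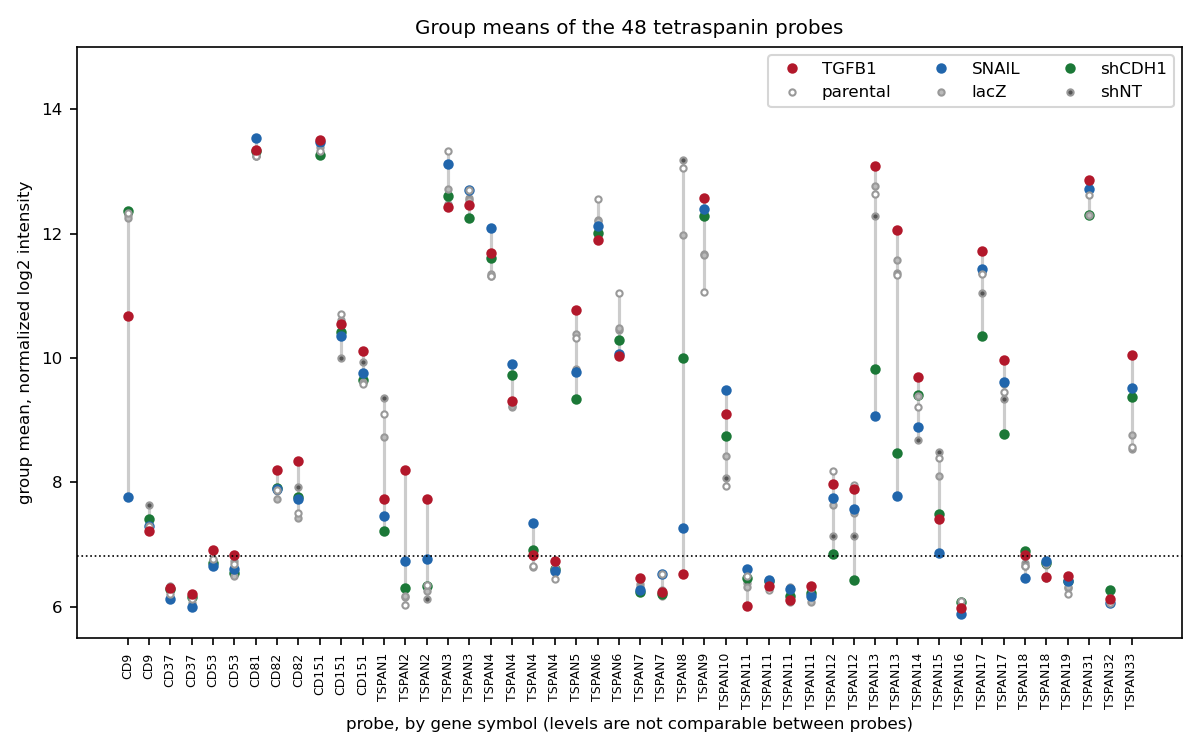
Mean normalized log2 intensity (vertical axis) of each of the 48 tetraspanin probes (horizontal axis, by gene symbol) in the 6 groups of 3 arrays, with coloured points for TGFB1, SNAIL and shCDH1 cells, grey points for their controls, grey lines from the lowest to the highest group mean and the median of all probes at 6.82 dotted. TSPAN8, the upper CD9 probe and both TSPAN13 probes span the longest ranges, and the 13 dim probes lie wholly below the dotted line.

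In TGFB1 cells 21 of the 48 probes differed from parental cells at an adjusted p below 0.05, 13 higher and 8 lower. Over all 47321 probes tested, 20.4% were called, 9.81% higher and 10.6% lower. A call with a change of at least 1 log2 unit was made for 9 tetraspanin probes, against 4.61% of all probes. In SNAIL cells 19 probes were called against lacZ, 10 higher and 9 lower, beside 24.1% of all probes (12.5% higher and 11.6% lower), and 7 passed 1 log2 unit, beside 6.49%. In shCDH1 cells 17 probes were called against shNT, 6 higher and 11 lower, beside 22.7% of all probes (12.5% higher and 10.3% lower), and 4 passed 1 log2 unit, beside 5.32%. The median log2 difference of the 48 probes was 0.10, 0.07 and 0.01 in the TGFB1, SNAIL and shCDH1 comparisons, next to -0.002, -0.001 and 0.01 for all probes, so the family as a whole had no common direction. Among the 23660 probes brighter than the median probe, 39.5%, 44.6% and 44.8% were called in the 3 comparisons, with 21, 17 and 18 of 30 tetraspanin probes.

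Counted by gene, with the probe of highest mean, 4 genes rose in all 3 comparisons (TSPAN4, TSPAN9, TSPAN10 and TSPAN33) and 3 fell in all 3 (TSPAN1, TSPAN8 and TSPAN15). Of all 20046 genes counted in the same way, 3.24% rose and 3.94% fell in all 3. TSPAN13, TSPAN14, TSPAN17 and TSPAN31 had called changes of opposite sign in different comparisons. CD9 fell in TGFB1 and SNAIL cells, TSPAN2 rose in both, TSPAN5 fell in SNAIL and shCDH1 cells, and CD81 rose in SNAIL cells. Called falls of TSPAN3, TSPAN6 and a dim TSPAN11 probe were found in TGFB1 cells, and 10 genes were called in none of the 3. Each comparison had its own control group, so none of these counts shares a control.

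**Figure D2:**
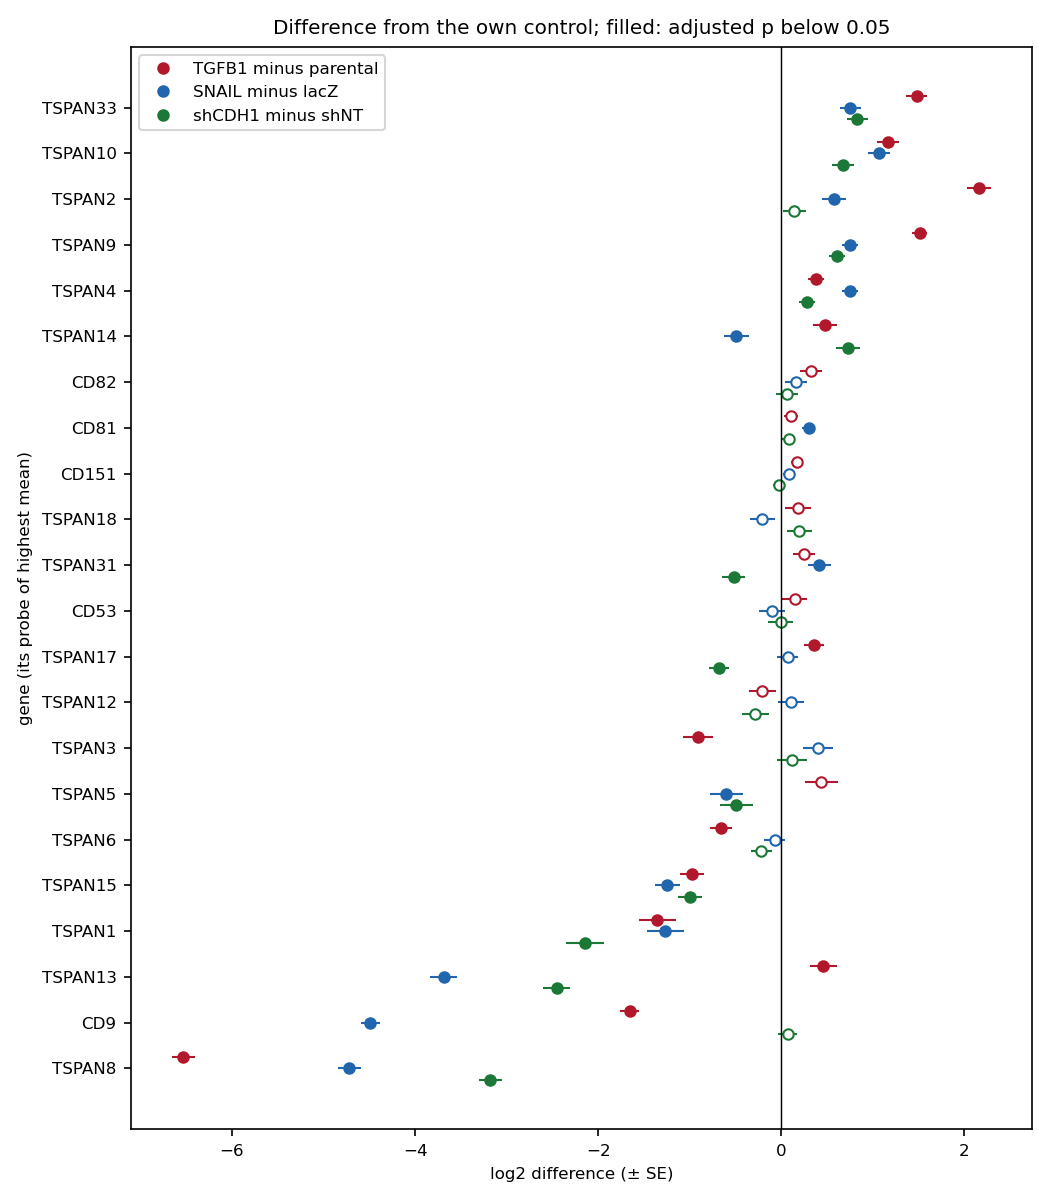
Log2 difference ± SE (horizontal axis) of the 22 tetraspanin genes with a probe that was not dim (vertical axis, probe of highest mean) for TGFB1 minus parental, SNAIL minus lacZ and shCDH1 minus shNT cells, each from 3 arrays against 3, with filled points where the adjusted p was below 0.05. TSPAN8 lies far to the left in all 3 comparisons, CD9 in 2 of them, and TSPAN13 lies left of 0 for SNAIL and shCDH1 but right of 0 for TGFB1.

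The largest fall of the family was that of TSPAN8 (probe ILMN_1683263), a tetraspanin found with integrins on digestive tract tumours. Its level was 6.50, 6.57 and 6.51 on the TGFB1 arrays, against 12.95, 13.10 and 13.12 on the parental arrays. This is a log2 difference of -6.53 ± 0.12 (adjusted p = 8.55e-25), and it brought the probe below the median of all probes, where a fold is not well measured. SNAIL cells had 7.22, 7.17 and 7.41, against 12.26, 11.61 and 12.08 in lacZ cells, 26.3-fold lower (log2 difference -4.72 ± 0.12, adjusted p = 1.67e-22). shCDH1 cells kept more signal, with 10.03, 9.98 and 10.00, against 13.14, 13.18 and 13.21 in shNT cells, 9.05-fold lower (log2 difference -3.18 ± 0.12, adjusted p = 1.85e-18). In none of the 3 comparisons did the arrays overlap. TSPAN8 was also 2.11-fold lower in lacZ than in parental cells (log2 difference -1.08 ± 0.12, adjusted p = 1.86e-07), whereas shNT cells differed from parental cells by 0.12 ± 0.12 (adjusted p = 0.64). The fall was larger in TGFB1 than in SNAIL cells, with a difference of the 2 effects of -1.81 ± 0.17 (adjusted p = 2.22e-09), and larger in SNAIL than in shCDH1 cells, at -1.54 ± 0.17 (adjusted p = 5.23e-08). The size of the TGFB1 fall moved between -7.19 and -5.59 over the 18 alternative settings. In RNA of whole cultures, fewer cells with the transcript and less transcript per cell cannot be told apart, and this holds for every gene below.

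**Figure D3:**
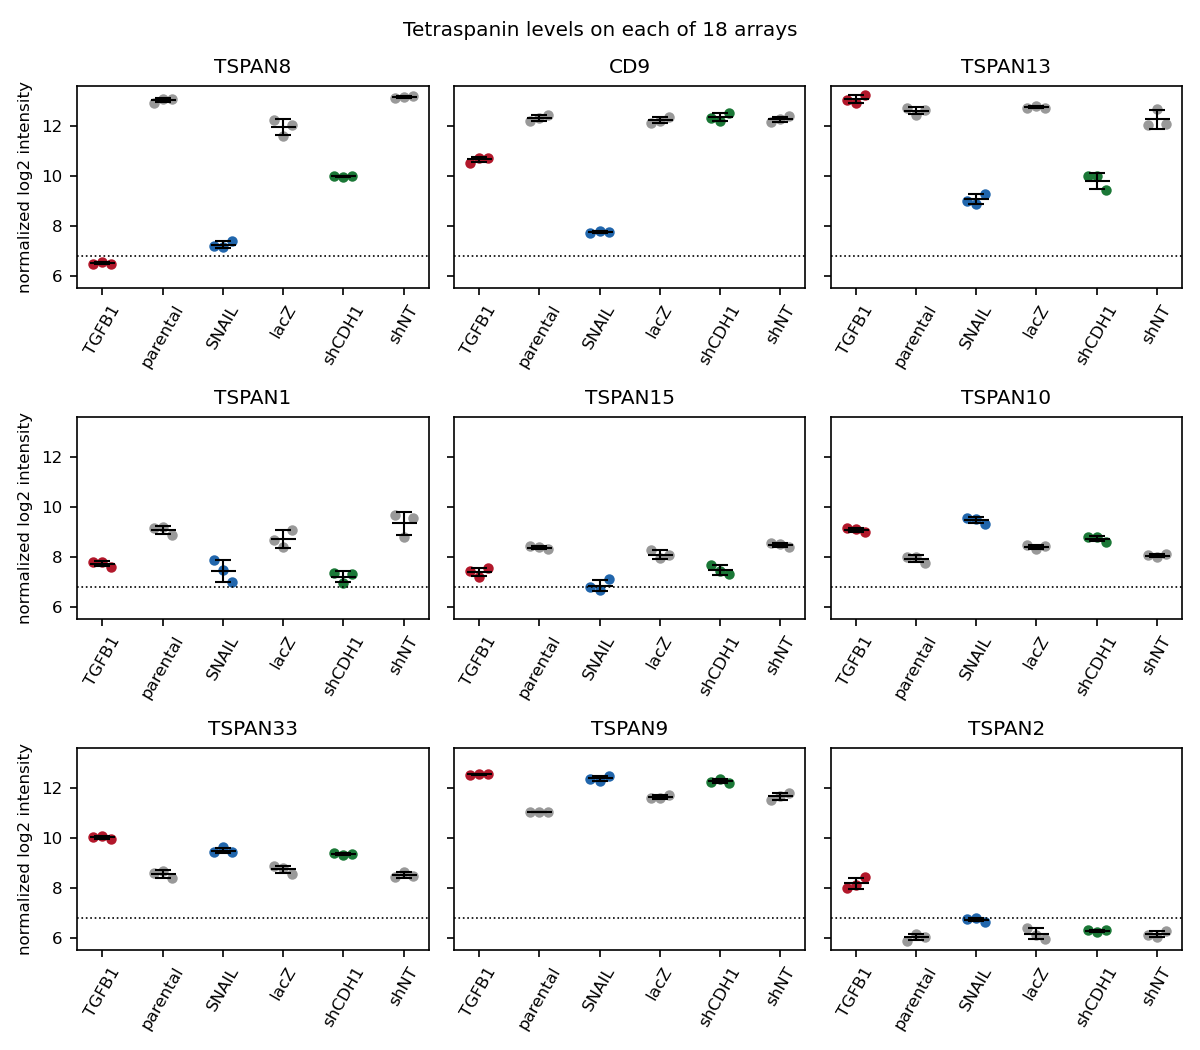
Normalized log2 intensity (vertical axis) on each of the 18 arrays for 9 tetraspanin genes, with a point per array, black bars for the mean ± SD of the 3 arrays of a group, and the median of all probes dotted. TSPAN8, TSPAN1 and TSPAN15 are lower in TGFB1, SNAIL and shCDH1 cells than in the control drawn to the right of each, TSPAN10, TSPAN33 and TSPAN9 are higher, and CD9, TSPAN13 and TSPAN2 differ by route.

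Among the integrin and vesicle tetraspanins, CD9, which also binds claudin-1 and the precursor of the EGFR ligand HBEGF, had the largest change. Its brighter probe (ILMN_1695423) read 10.55, 10.73 and 10.75 in TGFB1 cells, against 12.21, 12.33 and 12.46 in parental cells, 3.15-fold lower (log2 difference -1.65 ± 0.10, adjusted p = 1.43e-13). It read 7.73, 7.82 and 7.76 in SNAIL cells, against 12.15, 12.23 and 12.40 in lacZ cells, 22.5-fold lower (log2 difference -4.49 ± 0.10, adjusted p = 8.1e-24). In shCDH1 cells it read 12.32, 12.24 and 12.54, against 12.20, 12.29 and 12.40 in shNT cells, so those arrays overlapped and the difference of 0.07 ± 0.10 was not called (adjusted p = 0.738). The SNAIL and shCDH1 effects differed by -4.56 ± 0.14 (adjusted p = 9.44e-20), and the TGFB1 and shCDH1 effects by -1.72 ± 0.14 (adjusted p = 1.87e-10). The probe was thus lower with SNAIL and with TGFB1, and had no called change in cells whose CDH1 the hairpin had lowered 21.1-fold. A second CD9 probe (ILMN_1904242) stood between group means of 7.22 and 7.63 and was called in none of these comparisons, so the CD9 result rests on 1 probe.

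The other measured members of that list changed by under 1 log2 unit in the 3 comparisons. CD81, an entry receptor of hepatitis C virus, read 13.43, 13.42 and 13.21 in TGFB1 and 13.23, 13.27 and 13.24 in parental cells, where the arrays overlapped and the difference of 0.10 ± 0.08 was not called (adjusted p = 0.429). SNAIL cells had CD81 at 13.49, 13.63 and 13.51, against 13.20, 13.26 and 13.27 in lacZ cells, with no overlap (log2 difference 0.30 ± 0.08, adjusted p = 0.00324). Under median centring this difference was no longer called (adjusted p = 0.115), nor was it when normalization was left out (adjusted p = 0.478). For shCDH1 cells CD81 had 13.41, 13.38 and 13.17, against 13.15, 13.23 and 13.34 in shNT cells, which overlapped.

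CD151, the tetraspanin of the laminin-binding integrins, read 13.58, 13.39 and 13.55 in TGFB1 cells, against 13.37, 13.26 and 13.38 in parental cells on its brightest probe (ILMN_2326713), a difference of 0.17 ± 0.07 that missed the threshold (adjusted p = 0.0669) although the arrays did not overlap. The same probe gave 13.43, 13.51 and 13.48 in SNAIL and 13.36, 13.43 and 13.38 in lacZ cells. In shCDH1 cells it gave 13.29, 13.26 and 13.22, against 13.35, 13.22 and 13.27 in shNT cells. The arrays of these last 2 comparisons overlapped. Of its 2 other probes, ILMN_1794740 was called higher in TGFB1 cells (0.53 ± 0.12, adjusted p = 0.00138) and ILMN_1661589 was not (-0.17 ± 0.19, adjusted p = 0.652), so the CD151 probes do not give a single answer. Median centring removed the call of ILMN_1794740 (adjusted p = 0.0969).

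CD82, also named KAI1 and known as a metastasis suppressor, had 8.17, 8.28 and 8.17 in TGFB1 cells, against 7.85, 7.94 and 7.86 in parental cells on the probe of higher mean (ILMN_1662973), a difference of 0.32 ± 0.12 that missed the threshold (adjusted p = 0.0616). Its other probe (ILMN_2392274) had 8.49, 8.19 and 8.34 in TGFB1 cells, against 7.62, 7.32 and 7.61 in parental cells, and was called 1.77-fold higher (adjusted p = 2.97e-05). On neither probe did those arrays overlap. The first probe read 7.92, 8.04 and 7.71 in SNAIL and 7.62, 7.88 and 7.68 in lacZ cells, and 7.95, 7.94 and 7.85 in shCDH1 and 8.02, 7.84 and 7.71 in shNT cells. Those arrays overlapped, and neither probe was called in these 2 comparisons.

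TSPAN4, which marks the vesicles called migrasomes that moving cells leave behind, was called 1.68-fold higher in SNAIL cells on its brightest probe (ILMN_1718607, 0.75 ± 0.09, adjusted p = 8.1e-08). Its rises of 0.38 ± 0.09 in TGFB1 cells (adjusted p = 0.00201) and 0.28 ± 0.09 in shCDH1 cells (adjusted p = 0.0199) were smaller. The SNAIL rise was also called on 2 other TSPAN4 probes, while the TGFB1 rise was on no other, was lost with median centring (adjusted p = 0.28) and had the opposite sign without normalization (-0.03, adjusted p = 0.936). The shCDH1 call of the brightest probe ended in 5 of 17 alternatives, among them without shCDH1 array 3 (adjusted p = 0.0541) and without shNT array 2 (adjusted p = 0.0756). Another TSPAN4 probe (ILMN_2340027) was also called higher in shCDH1 cells, by 0.52. Its call ended without normalization (adjusted p = 0.0704) and without shNT array 1 (adjusted p = 0.05).

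The ADAM10-binding TspanC8 genes split. TSPAN10 and TSPAN33 rose in all 3 comparisons and TSPAN15 fell in all 3. Counted by gene, 4 of the 6 rose and 1 fell in TGFB1 cells, 2 rose and 3 fell in SNAIL cells, and 3 rose and 3 fell in shCDH1 cells. The median log2 difference of the list was 0.46 in TGFB1, -0.21 in SNAIL and 0.09 in shCDH1 cells, next to -0.002, -0.001 and 0.01 for all probes. Of all 20046 genes, 28.7%, 34.4% and 32% were called in these comparisons in the same count by gene. ADAM10 itself was called only in shCDH1 cells among these comparisons, 0.74 ± 0.15 higher than in shNT cells (adjusted p = 0.000434), with differences of 0.13 ± 0.15 in TGFB1 and 0.05 ± 0.15 in SNAIL cells. The level of ADAM10 was 10.71 in shCDH1, 9.97 in shNT and 10.44 in parental cells. ADAM10 was thus called lower in shNT than in parental cells (-0.47 ± 0.15, adjusted p = 0.0393), and it was called higher in lacZ than in parental cells (0.49 ± 0.15, adjusted p = 0.0476).

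TSPAN15, the TspanC8 known to promote the shedding of N-cadherin by ADAM10, read 7.46, 7.22 and 7.57 in TGFB1 cells, against 8.44, 8.41 and 8.33 in parental cells, 1.97-fold lower (adjusted p = 1.55e-06). It read 6.81, 6.67 and 7.11 in SNAIL cells, against 8.28, 7.96 and 8.08 in lacZ cells, 2.37-fold lower (adjusted p = 1.32e-08). In shCDH1 cells it read 7.70, 7.44 and 7.35, against 8.56, 8.51 and 8.40 in shNT cells, 1.99-fold lower (adjusted p = 9.25e-07). No arrays overlapped, and the 3 effects did not differ from each other at the threshold (adjusted p between 0.427 and 0.967). The SNAIL mean of 6.86 lay close to the median of all probes, where a fold is not well measured. Over 17 alternatives the SNAIL difference ran between -1.56 and -0.83.

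TSPAN33 moved the other way. It had 10.06, 10.09 and 9.99 in TGFB1 cells, against 8.60, 8.70 and 8.40 in parental cells, 2.79-fold higher (log2 difference 1.48 ± 0.12, adjusted p = 3.64e-11). SNAIL cells had 9.45, 9.65 and 9.44 of TSPAN33, against 8.88, 8.81 and 8.58 in lacZ cells, 1.69-fold higher (adjusted p = 7.67e-06). In shCDH1 cells TSPAN33 stood at 9.42, 9.32 and 9.37, against 8.46, 8.66 and 8.48 in shNT cells, 1.78-fold higher (adjusted p = 2.03e-06). The TGFB1 effect exceeded the SNAIL effect by 0.72 ± 0.17 (adjusted p = 0.00171) and the shCDH1 effect by 0.65 ± 0.17 (adjusted p = 0.00487). TSPAN33 was not called in either virus control against parental cells. Both differences of effects missed the threshold with median centring (adjusted p = 0.0571 and 0.132) and without normalization (0.529 and 0.738), and the second also with TGFB1 array 3 as the only TGFB1 array (0.0719).

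TSPAN10 had 9.16, 9.14 and 9.01 in TGFB1 cells, against 8.02, 8.02 and 7.77 in parental cells, 2.25-fold higher (adjusted p = 4.52e-09). In SNAIL cells TSPAN10 read 9.57, 9.54 and 9.35, against 8.49, 8.33 and 8.44 in lacZ cells, 2.09-fold higher (adjusted p = 1.75e-08). In shCDH1 cells it read 8.80, 8.81 and 8.62, against 8.10, 7.99 and 8.12 in shNT cells, 1.60-fold higher (adjusted p = 4.39e-05). All 3 rises were free of overlap. TSPAN10 was also higher in lacZ than in parental cells, by 0.48 ± 0.12 (adjusted p = 0.00637). That lacZ call ended without parental array 3 (adjusted p = 0.0669) and without normalization (adjusted p = 0.358).

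The remaining TspanC8 genes had smaller changes that depended on the route. TSPAN14, which with TSPAN5 is known to promote ADAM10 cleavage of Notch, was higher in TGFB1 cells (0.48 ± 0.13, adjusted p = 0.00907), lower in SNAIL cells (-0.49 ± 0.13, adjusted p = 0.0058) and higher in shCDH1 cells (0.73 ± 0.13, adjusted p = 8.39e-05). Its TGFB1 and SNAIL calls ended without TGFB1 array 3 (adjusted p = 0.0505) and without SNAIL array 3 (adjusted p = 0.0581). Median centring also ended the TGFB1 call (0.33, adjusted p = 0.194). Neither call was made without normalization, where the differences were 0.09 in TGFB1 (adjusted p = 0.83) and -0.54 in SNAIL cells (adjusted p = 0.14). TSPAN14 was also lower in shNT than in parental cells (-0.53, adjusted p = 0.00569). Against the mean of all 3 control groups its SNAIL difference was -0.20 (adjusted p = 0.203), and its shCDH1 difference was as small as 0.32 among 17 alternatives, each of which kept the call. Both probes of TSPAN17 were higher in TGFB1 cells, by 0.36 ± 0.11 and 0.51 ± 0.12, and lower in shCDH1 cells, by -0.68 ± 0.11 and -0.56 ± 0.12. The TGFB1 difference of the brighter TSPAN17 probe was -0.04 without normalization (adjusted p = 0.901). Its call was lost when parental array 2 or 3 or TGFB1 array 1 or 2 was left out (adjusted p between 0.068 and 0.155). The other TSPAN17 probe lost its TGFB1 call without normalization (0.12, adjusted p = 0.733). Median centring ended the TGFB1 call of both probes (adjusted p = 0.315 and 0.0587). TSPAN5 was lower in SNAIL cells (-0.60 ± 0.18, adjusted p = 0.012) and in shCDH1 cells (-0.49 ± 0.18, adjusted p = 0.0465), and the shCDH1 call ended in 11 of 17 alternatives, with an adjusted p of 0.409 without shNT array 2. The TSPAN5 call in SNAIL cells was lost without lacZ array 1, lacZ array 2 or SNAIL array 3 (adjusted p = 0.0918, 0.0507 and 0.0565).

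TSPAN13 differed by route, falling in SNAIL and shCDH1 cells but not in TGFB1 cells. Probe ILMN_1669881 read 13.06, 12.96 and 13.25 in TGFB1 cells, against 12.75, 12.47 and 12.67 in parental cells, a rise of 0.46 ± 0.15 (adjusted p = 0.0241). The same probe read 9.02, 8.91 and 9.30 in SNAIL cells, against 12.75, 12.81 and 12.73 in lacZ cells, 12.9-fold lower (log2 difference -3.69 ± 0.15, adjusted p = 2.84e-18). It read 10.03, 10.00 and 9.46 in shCDH1 cells, against 12.06, 12.70 and 12.08 in shNT cells, 5.47-fold lower (log2 difference -2.45 ± 0.15, adjusted p = 5.03e-14). No arrays overlapped within a comparison. The second probe (ILMN_2130525) gave 0.71 ± 0.11 in TGFB1, -3.79 ± 0.11 in SNAIL and -2.89 ± 0.11 in shCDH1 cells, all called. Both large falls kept their call in all alternatives run, but the TGFB1 rise of the first probe ended without parental array 2 (adjusted p = 0.13), without TGFB1 array 1 (0.0528) or array 3 (0.124), and on both probes when normalization was left out (adjusted p = 0.47 and 0.345). The fall in SNAIL cells exceeded that in shCDH1 cells by 1.23 ± 0.21 on the first probe, with a difference of effects of -1.23 (adjusted p = 3.42e-05).

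TSPAN1 (ILMN_1747546), a tetraspanin of secretory epithelia, fell along every route. It had 7.81, 7.80 and 7.61 in TGFB1 cells, against 9.19, 9.20 and 8.90 in parental cells, 2.56-fold lower (adjusted p = 6.1e-06). SNAIL cells had 7.90, 7.48 and 7.02 of TSPAN1, against 8.69, 8.41 and 9.10 in lacZ cells, 2.40-fold lower (adjusted p = 1.2e-05). In shCDH1 cells TSPAN1 read 7.36, 6.96 and 7.33, against 9.70, 8.82 and 9.55 in shNT cells, 4.42-fold lower (adjusted p = 1.22e-09). Arrays of a group spread widely for this gene, up to an SD of 0.47 in shNT cells, yet no groups compared overlapped. The SNAIL and shCDH1 effects differed by 0.88 ± 0.29 (adjusted p = 0.0267), but this call was lost in 10 of 22 alternatives, among them without lacZ array 1 or 2, shCDH1 array 2, shNT array 1 or 3, or SNAIL array 1 (adjusted p between 0.0544 and 0.121).

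TSPAN9, a platelet tetraspanin in mice, was higher on each route and also higher in both virus controls than in parental cells. It read 12.56, 12.58 and 12.57 in TGFB1 cells, against 11.05, 11.06 and 11.06 in parental cells, 2.85-fold higher (adjusted p = 2.6e-14). SNAIL cells had TSPAN9 at 12.39, 12.32 and 12.50, against 11.60, 11.62 and 11.75 in lacZ cells, 1.68-fold higher (adjusted p = 4.86e-08). In shCDH1 cells TSPAN9 read 12.28, 12.38 and 12.21, against 11.53, 11.68 and 11.82 in shNT cells, 1.52-fold higher (adjusted p = 2.37e-06). The lacZ and shNT cells themselves exceeded parental cells by 0.60 ± 0.09 (adjusted p = 1.09e-05) and 0.62 ± 0.09 (adjusted p = 8.95e-06), and these 2 differences share the parental arrays. Neither was called without normalization (adjusted p = 0.149 and 0.328).

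TSPAN2, known from myelinating glia, appeared mainly with TGFB1. Its probe of higher mean (ILMN_1810093) read 8.01, 8.14 and 8.44 in TGFB1 cells, against 5.91, 6.16 and 6.04 in parental cells, a log2 difference of 2.16 ± 0.13 (adjusted p = 6.65e-14). In SNAIL cells TSPAN2 read 6.76, 6.81 and 6.66, against 6.41, 6.12 and 5.98 in lacZ cells, a rise of 0.57 ± 0.13 (adjusted p = 0.000954). In shCDH1 cells it read 6.31, 6.26 and 6.34, against 6.14, 6.04 and 6.30 in shNT cells, where the arrays overlapped and the difference of 0.14 ± 0.13 was not called (adjusted p = 0.537). The TGFB1 effect exceeded the SNAIL effect by 1.59 ± 0.18 (adjusted p = 7.9e-08) and the shCDH1 effect by 2.02 ± 0.18 (adjusted p = 9.4e-10). A second probe (ILMN_2186319) gave 1.38 ± 0.14 in TGFB1 and 0.51 ± 0.14 in SNAIL cells, both called. Levels outside the TGFB1 group lay below the median of all probes, and the TGFB1 difference ran between 1.32 and 3.05 over 17 alternatives.

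The other tetraspanins changed by under 1 log2 unit in the 3 main comparisons on their probe of highest mean. TSPAN3 and TSPAN6, of which TSPAN6 is known to bind syntenin in vesicle sorting, fell in TGFB1 cells by 0.91 and 0.65 log2 units. The second TSPAN6 probe fell by 1.02 ± 0.12 there (adjusted p = 9.15e-08), whereas the second TSPAN3 probe changed by -0.24 ± 0.09 and was not called (adjusted p = 0.0627). TSPAN31, a gene amplified in sarcomas, was higher in SNAIL cells (0.42 ± 0.12, adjusted p = 0.0103) and lower in shCDH1 cells (-0.52 ± 0.12, adjusted p = 0.00152). Its SNAIL call ended without lacZ array 2, which was the low one at 11.90 (adjusted p = 0.188). That call also ended against the mean of all 3 control groups (0.14, adjusted p = 0.343) and without normalization (0.33, adjusted p = 0.242). TSPAN12, of the Norrin receptor complex, was lower in shCDH1 cells on 1 probe (ILMN_2194106, -0.71 ± 0.13, adjusted p = 8.9e-05) and not called on the other (-0.28 ± 0.15, adjusted p = 0.202). It was also lower in shNT than in parental cells, by -1.05 ± 0.15 and -0.82 ± 0.13. Against the mean of all 3 control groups in place of parental cells, both TSPAN12 probes were higher in TGFB1 cells (0.32 and 0.36), where the parental control gave -0.21 and -0.07.

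The leukocyte tetraspanins CD37, CD53 and TSPAN32 were called in none of the 3 comparisons. Their 5 probes stood between group means of 5.99 and 6.91, close to the median of all probes. The common leukocyte antigen PTPRC stood between 6.28 and 6.90, the T cell marker CD3E between 6.44 and 6.68, the B cell marker MS4A1 between 6.66 and 6.90, and 4 endothelial markers between 5.96 and 7.44. Other haematopoietic markers were brighter, with CD68, a lysosomal protein of macrophages, between 12.31 and 12.95 and CD79A between 7.30 and 7.91. CD14 stood at 7.22 in TGFB1 and 8.72 in parental cells, at 8.73 in SNAIL and 7.11 in lacZ cells, and at 8.48 in shCDH1 and 8.12 in shNT cells. FCER1G stood at 7.44 in TGFB1 and 6.07 in parental cells. The part of other cell types in these results was not tested. TSPAN7, TSPAN11, TSPAN16 and TSPAN19 were dim on every probe, and of these a single TSPAN11 probe was called, 0.47 ± 0.15 lower in TGFB1 cells. TSPAN18 was not called in any of the 3 comparisons.

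For 11 genes more than 1 probe was not dim, and in none of them were 2 such probes called in opposite directions within a main comparison. In many of these cases at most 1 of the probes was called, so opposite calls could not arise there. The sizes were close for TSPAN13 and TSPAN17, smaller on the second TSPAN2 probe, and apart for CD9, where the second probe was near the median of all probes. Some probes of a gene differed in sign. TSPAN3 in shCDH1 cells gave 0.12, not called, on its probe of highest mean and -0.32, called lower, on the other. Median centring ended that call (adjusted p = 0.0555). CD151 probes ran from -0.17 to 0.53 in TGFB1 cells and from -0.30 to 0.42 in shCDH1 cells.

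**Figure D4:**
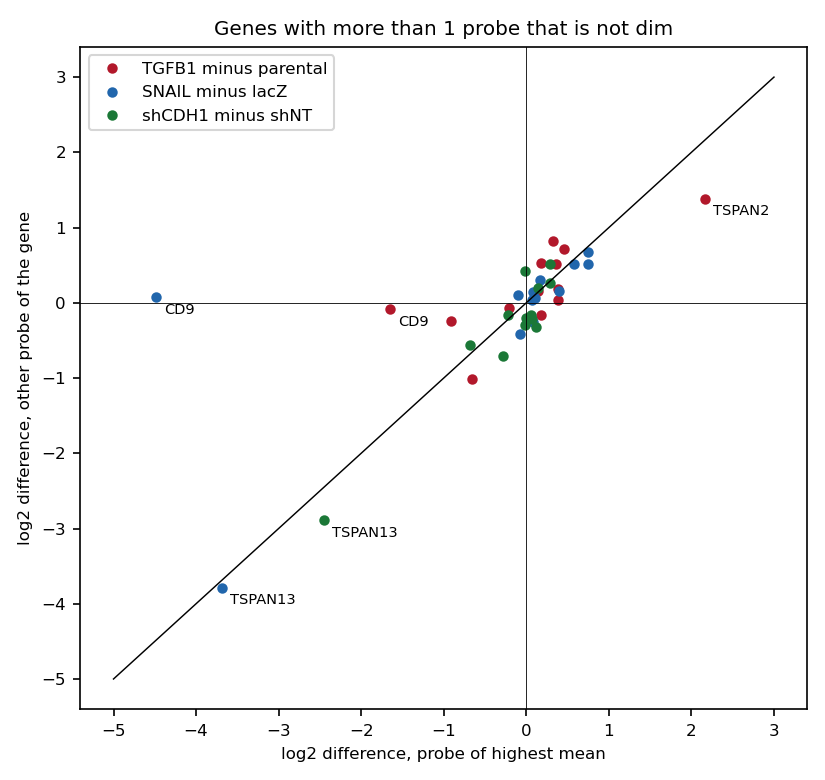
Log2 difference of a gene's further probes that were not dim (vertical axis) against that of its probe of highest mean (horizontal axis), for TGFB1 minus parental, SNAIL minus lacZ and shCDH1 minus shNT cells in the 11 genes with more than 1 such probe; the line marks equal values. TSPAN13 lies close to the line in SNAIL and shCDH1 cells, and CD9 lies at about 0 on its second probe.

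Against parental cells, 7 tetraspanin probes were called in lacZ cells, beside 7.87% of all probes, and 9 in shNT cells, beside 14% of all probes. In lacZ cells the called probes were those of TSPAN8, 1 of TSPAN3, the second of TSPAN6 and both of TSPAN12, lower, and those of TSPAN9 and TSPAN10, higher. The TSPAN6 probe of highest mean was not called (adjusted p = 0.0708). The TSPAN3 call ended in 5 of 16 alternatives, among them without lacZ array 2, parental array 2 or parental array 3 (adjusted p = 0.115, 0.0695 and 0.0811), and the 2 TSPAN12 calls in 6 of 16 and 7 of 15, among them without lacZ array 1 (adjusted p = 0.0502 and 0.0703). In shNT cells both TSPAN12 probes and 1 probe each of TSPAN3, TSPAN6, TSPAN14 and CD151 were lower, and TSPAN9, another CD151 probe and a CD82 probe were higher. The higher CD151 and CD82 calls ended in 9 and 7 of 15 alternatives. CD9 and TSPAN13 were not called in either virus control, with CD9 at -0.07 ± 0.10 in lacZ and -0.04 ± 0.10 in shNT cells.

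Differences between the routes, each taken against its own control, were tested in the same model. The TGFB1 and SNAIL effects differed for 19 tetraspanin probes, beside 18.4% of all probes, the TGFB1 and shCDH1 effects for 18, beside 19.6%, and the SNAIL and shCDH1 effects for 12, beside 20.6%. The TGFB1 effect was above the shCDH1 effect for 14 of those 18 probes and below it for 4, while 46.8% of all calls there were higher. Without normalization it was above for 4 probes and below for 8, with 16.3% of all calls higher. Median centring gave 9 above and 5 below, with 39.5% of all calls higher.

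Known partners of the tetraspanins were described with the probe of highest mean per gene, of which 34 of 36 listed genes had one. In TGFB1 cells 11 rose and 10 fell, in SNAIL cells 8 rose and 10 fell, and in shCDH1 cells 6 rose and 12 fell. Of all 20046 genes, 14.3% rose and 14.4% fell in TGFB1 cells, 18.5% and 15.9% in SNAIL cells, and 16.8% and 15.2% in shCDH1 cells. Among the integrins, ITGB4, which pairs with the CD151 partner ITGA6, fell in all 3 comparisons, with log2 differences of -1.87 in TGFB1, -2.43 in SNAIL and -3.28 in shCDH1 cells. Its SNAIL and shCDH1 levels of 6.67 and 6.17 lay below the median of all probes, and over 17 alternatives the shCDH1 difference ran between -4.13 and -2.31. ITGA6 itself fell only in SNAIL cells (-1.54, adjusted p = 4.14e-10). It rose in TGFB1 (0.63, adjusted p = 0.00104) and shCDH1 cells (0.65, adjusted p = 0.000672), and was lower in shNT than in parental cells (-0.51, adjusted p = 0.0123). ITGA2, a collagen receptor chain, fell by 2.00 log2 units in SNAIL and 8.22-fold in shCDH1 cells but rose 1.66-fold in TGFB1 cells. Median centring took that rise below the threshold (adjusted p = 0.0584). ITGA2 was also lower than in parental cells in lacZ (-1.45 ± 0.18, adjusted p = 6.54e-07) and shNT cells (-0.89 ± 0.18, adjusted p = 0.000701). ITGA5, a fibronectin receptor chain, rose 5.73-fold in TGFB1 and 2.96-fold in SNAIL cells and fell by 0.37 log2 units in shCDH1 cells. The call of that fall ended in 8 of 17 alternatives, and the difference had the opposite sign (0.05) against the mean of all 3 controls. Both virus controls exceeded parental cells for ITGA5, lacZ by 0.70 ± 0.13 (adjusted p = 0.000278) and shNT by 0.99 ± 0.13 (adjusted p = 2.65e-06). Without normalization the lacZ difference was not called (adjusted p = 0.0705). CD44, HBEGF and PI4K2A were among the other partners that rose in TGFB1 cells.

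Junction partners fell with SNAIL. EPCAM, an epithelial adhesion molecule, was at 7.85 in SNAIL and 13.68 in lacZ cells, 57.0-fold lower, and fell 6.88-fold in shCDH1 cells, but was not called in TGFB1 cells (-0.22 ± 0.09, adjusted p = 0.0793). CLDN7, a claudin found with EPCAM and tetraspanins, fell 18.8-fold in SNAIL, 5.77-fold in shCDH1 and 2.44-fold in TGFB1 cells. CLDN1 fell 5.88-fold in SNAIL cells and rose 3.12-fold in TGFB1 cells. HBEGF rose 4.70-fold in TGFB1, 2.77-fold in SNAIL and 2.59-fold in shCDH1 cells. The lacZ cells themselves exceeded parental cells for CLDN1 (0.72 ± 0.11, adjusted p = 1.65e-05) and HBEGF (1.06 ± 0.15, adjusted p = 4.25e-06). Without normalization that CLDN1 difference was not called (adjusted p = 0.08). EPCAM and CLDN7 were called in neither virus control.

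Of the 5 measured vesicle formation genes, 4 fell in TGFB1 cells and none rose, beside 14.4% of all genes that fell. RAB27B, a small GTPase of exosome secretion, fell 8.72-fold there, to 9.51 ± 0.15 in TGFB1 cells against 12.63 ± 0.07 in parental cells, and 3.90-fold in SNAIL cells. RAB27B was also lower than in parental cells in lacZ (-0.41 ± 0.09, adjusted p = 0.00391) and shNT cells (-0.38 ± 0.09, adjusted p = 0.00546). Median centring ended both of these calls (adjusted p = 0.183 and 0.0638). RAB27A fell 2.17-fold in TGFB1 and 2.22-fold in shCDH1 cells, and TSG101 and FLOT1 fell 1.44-fold and 1.53-fold in TGFB1 cells while both rose in SNAIL cells, 1.19-fold and 1.30-fold. In the Norrin receptor complex that holds TSPAN12, the ligand gene NDP was higher in shCDH1 cells by 4.16 ± 0.17 (adjusted p = 7.72e-18), against a shNT level of 6.57 below the median of all probes, and the difference ran between 3.30 and 4.78 over 17 alternatives. The receptor FZD4 rose 1.90-fold in shCDH1 cells and 2.92-fold in SNAIL cells, and LRP5 fell 3.71-fold in TGFB1, 2.74-fold in SNAIL and 1.47-fold in shCDH1 cells. PTGFRN, the CD9 and CD81 partner, fell 2.83-fold in shCDH1 cells and rose 1.42-fold in SNAIL cells.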

How the data were processed

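The authors deposited linear bead-array intensity values for 18 arrays, which were read as not normalized between arrays because their medians differ; scanner, software and genome build are not given in the sources used here. Labelled complementary RNA was made with a kit for Illumina arrays, per the labels' protocols. From these values, limma 3.58.1 in R 4.3.3 made a normexp background correction (offset 50), log2 values and quantile normalization over 18 arrays. The 2 probes with a value of 0 were left out, leaving 47321. One limma model with 6 group means and an intensity trend gave two-sided tests with 12 residual degrees of freedom, adjusted by Benjamini-Hochberg over all probes. The code was tested on simulated data. Detection p-values were not used here, and 3 arrays per group limit the precision (median SE 0.134 log2 units).

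Values are given for CDH1, VIM and SNAI1, for the probe of highest mean of each tetraspanin gene that was called with at least 1 log2 unit, for the members without a TSPAN number above the median of all probes, and for up to 5 called partner genes with the largest change in each main comparison. Other genes named, with their values, were added after those values were seen. The members and gene lists were chosen with earlier results of these data known. Symbols came from the platform annotation, promoter sequences from RefSeq. Deviations of equally numbered arrays correlated at -0.104 to 0.187, with no comparison above 0.1 in every pair, so numbers were not used to pair arrays. Alternatives were other background corrections and normalizations, probe filters, controls, array subsets and each array left out.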

Additional observations from a re-analysis of the deposited data

Results flagged for a closer look

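TSPAN13 had called effects of opposite sign on different routes, and the difference itself was tested. On probe ILMN_1669881 the TGFB1 effect (0.46) minus the SNAIL effect (-3.69) was 4.14 ± 0.21 (adjusted p = 1.83e-15), and the TGFB1 effect minus the shCDH1 effect (-2.45) was 2.91 ± 0.21 (adjusted p = 5.58e-12). The second TSPAN13 probe, ILMN_2130525, gave 4.50 ± 0.16 (adjusted p = 5.71e-19) and 3.60 ± 0.16 (adjusted p = 7.1e-17) for these differences. All 3 arrays of TGFB1 cells lay above those of parental cells, and all 3 of SNAIL and of shCDH1 cells lay below those of their controls. The TGFB1 rise is the small part of each difference, and its own call was lost under several settings.

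Among the TspanC8 genes, the TGFB1 effect on TSPAN14 (0.48) exceeded the SNAIL effect (-0.49) by 0.97 ± 0.19 (adjusted p = 0.000256), and the SNAIL effect minus the shCDH1 effect (0.73) was -1.22 ± 0.19 (adjusted p = 1e-05). For TSPAN17 the TGFB1 effect minus the shCDH1 effect was 1.04 ± 0.16 (adjusted p = 1.09e-05) on probe ILMN_1777881 and 1.07 ± 0.16 (adjusted p = 1.08e-05) on probe ILMN_2374383. The TGFB1 and SNAIL calls of TSPAN14 and the TGFB1 calls of both TSPAN17 probes were each lost under several settings. TSPAN31 rose in SNAIL and fell in shCDH1 cells, a difference of effects of 0.94 ± 0.17 (adjusted p = 0.000109). Its SNAIL call was also lost under several settings.

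Among the partners, ITGA5 had TGFB1 and SNAIL effects above the shCDH1 effect by 2.89 ± 0.18 (adjusted p = 2.88e-13) and 1.94 ± 0.18 (adjusted p = 1.15e-09). CLDN1 had a TGFB1 effect above the SNAIL effect by 4.20 ± 0.15 (adjusted p = 1.72e-18). ITGA2 had a TGFB1 effect above the SNAIL effect by 2.73 ± 0.25 (adjusted p = 9.16e-10) and above the shCDH1 effect by 3.77 ± 0.25 (adjusted p = 1.2e-12).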

How the results depend on the processing

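With a required change of 1 log2 unit, called tetraspanin probes numbered 9 in TGFB1 minus parental, 7 in SNAIL minus lacZ and 4 in shCDH1 minus shNT. These stand beside 4.61%, 6.49% and 5.32% of all probes. There was 1 in lacZ minus parental and 1 in shNT minus parental, each beside 1.45%. The TGFB1 and SNAIL effects differed for 7, beside 6.97% of all probes. The TGFB1 and shCDH1 effects differed for 9, beside 6.9%, and the SNAIL and shCDH1 effects for 4, beside 8.1%. Without normalization between arrays the called tetraspanin probes numbered 11 in shCDH1 minus shNT, beside 13.6% of all probes, and 1 in lacZ minus parental, beside 3.09%. For the TGFB1 against the SNAIL effect there were 8, beside 11.9%, and for the SNAIL against the shCDH1 effect 6, beside 11.6%. In that setting TGFB1 minus parental had 5 tetraspanin probes higher and 11 lower, against 13 and 8 as reported, the median of all probes moved by -0.195, and 14.9% of all calls were higher, against 48% as reported. With 1 probe per gene there were 5 calls in shNT minus parental, beside 20.8% of all genes. The TGFB1 and SNAIL effects differed for 12, beside 29.3%. Fewer probes were tested in that setting. The alternative with TGFB1 array 3 as the only TGFB1 array was added after seeing the data. Median centring moved the higher share of all calls in TGFB1 minus parental to 41.6%. With 1 array left out, calls ran between 4 and 6 in lacZ minus parental, 19 and 21 in TGFB1 minus parental, 15 and 20 in SNAIL minus lacZ, and 15 and 17 in shCDH1 minus shNT. The share of all probes called with 1 array left out is not given here. With the title number as a replicate block, 22, 19 and 17 probes were called in the 3 main comparisons, against 21, 19 and 17 without it. Of all probes, 21.3%, 24.8% and 23.5% were called with that block. The falls of TSPAN8, TSPAN1 and TSPAN15 and the rises of TSPAN10, TSPAN33 and TSPAN9 kept their direction in the 3 main comparisons under all alternatives run. They also kept their call, except where a change of 1 log2 unit was required. That requirement ended the calls of TSPAN15 in TGFB1 and shCDH1 cells and of TSPAN10 in shCDH1 cells. It also ended those of TSPAN33 and TSPAN9 in SNAIL and shCDH1 cells. The CD9 falls in TGFB1 and SNAIL cells and the TSPAN13 falls kept direction and call under all alternatives run. The causes of the changed calls were not tested. Probes near the median of all probes carry the least signal over background.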
